A study of Mus musculus with 5 samples.

Results

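The 7 genes Yap1, Wwtr1, Tead1, Ctgf, Cyr61, Ankrd1 and Amotl2 were chosen by name from the 31053 genes of a single-cell RNA survey of mouse liver, and all 7 were found in the files. They belong to the pathway of the coactivators YAP and TAZ, and they were followed in 2 classes of cell barcode, hepatocytes and endothelial cells. There were 5 libraries, 1 per group, all from C57BL/6J mice. They were liver at postnatal day 14 (P14), liver of an adult labelled as control (adult control), and livers of operated adults. The operated livers were taken 24 h, 48 h or 96 h past partial hepatectomy (PHx), an operation that takes out most liver lobes. Adult mice were 8 weeks old. The labels contradict each other on the adult control, which the protocol counts among the operated animals while its title, source and age call it a control. It was read as the control. The labels give neither sex nor number of animals, and a lane code in the descriptions sets the adult control apart from the other 4 libraries, so the lane and the control cannot be told apart.

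YAP (from Yap1) and TAZ (from Wwtr1) are coactivators without DNA-binding ability of their own, which enter the nucleus and bind TEAD transcription factors such as Tead1. In the Hippo pathway the MST kinases activate the LATS kinases, which phosphorylate YAP and TAZ and keep them in the cytoplasm. The activity of YAP and TAZ is thus set mostly on the protein, not on the mRNA. Ctgf and Cyr61 encode secreted matricellular proteins, Ankrd1 a nuclear ankyrin repeat protein and Amotl2 an angiomotin-like scaffold that binds YAP. All 4 are widely read as transcriptional targets of YAP and TAZ, and Cyr61 is also an immediate early gene. In liver the pathway is known for limiting organ size and for its part in the response to loss of tissue.

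TEAD factors bind the core GGAATG, whose reverse complement is CATTCC, so the stretches upstream of the RefSeq starts are shown to place that core in these genes. RefSeq promoters (GRCm38.p6) were at hand for 5 of the 7 members, and each of the 5 holds the core within 250 bases upstream. Over all 32851 promoters of the same length 12.6% hold it on either strand. The target whose hepatocyte level differed most among the libraries of adult mice was Cyr61, on the minus strand, whose upstream stretch at chr3:145649986-145650235 is given whole, 5′ to 3′, with the core in capitals.

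Cyr61, upstream stretch: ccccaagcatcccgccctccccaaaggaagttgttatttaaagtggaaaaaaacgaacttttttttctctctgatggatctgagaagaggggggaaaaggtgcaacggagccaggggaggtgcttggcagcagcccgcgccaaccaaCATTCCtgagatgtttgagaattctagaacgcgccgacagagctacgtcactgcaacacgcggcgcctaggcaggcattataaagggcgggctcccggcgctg

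For the other 4 genes, only 30 bases around each core are shown. In GENCODE M21, annotated untranslated regions cover all 250 bases of the Ankrd1 stretch, with both its cores, and 136 of the 250 bases of the Amotl2 stretch.
Yap1, chr9:8004720-8004749, minus strand: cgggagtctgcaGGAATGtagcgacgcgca
Wwtr1, chr3:57576029-57576058, minus strand: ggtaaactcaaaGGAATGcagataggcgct
Amotl2, chr9:102717727-102717756, plus strand: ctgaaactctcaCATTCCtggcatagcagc
Ankrd1, chr19:36120037-36120066, minus strand: gtcactgccaaaGGAATGaccctctcacat
Ankrd1, chr19:36119950-36119979, minus strand: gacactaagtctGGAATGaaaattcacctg
The core of Cyr61 lies 98 to 103 bases before the start and that of Amotl2 60 to 65 bases before it. Ankrd1 has 2 cores (1.02% of all promoters have 2 or more), at 205 to 210 and 118 to 123 bases. None of the 5 stretches holds the AP-1 motif TGANTCA, found in 6.75% of promoters, or a CArG box, the serum response element core, found in 1.47%. These matches describe letters, not bound sites. In GENCODE M21 (GRCm38) Yap1 spans chr9:7931999-8004596 and Wwtr1 chr3:57455649-57575910, both on the minus strand, and Tead1 spans chr7:112679318-112906807 on the plus strand. Of the targets, Ctgf lies at chr10:24595442-24598683 and Amotl2 at chr9:102716672-102733418 on the plus strand, and Cyr61 at chr3:145646976-145649981 and Ankrd1 at chr19:36111961-36120099 on the minus strand. Yap1, Wwtr1, Tead1 and Ctgf each overlap an annotated gene on the other strand, and the sources used here do not state whether counting used strand.

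The values are summed UMIs (unique molecular identifiers, 1 per captured RNA molecule) of a class, and levels are given as CPM, the UMIs of a gene per 1000000 UMIs of that class without the 13 mitochondrial genes. Levels are compared within a gene, not between genes. With 1 library per group there is no replicate and no test, so all intervals are exact 95% Poisson or binomial intervals that cover counting error only. A gene was called different when it reached 5 CPM in either sum and the 2 sums differed at least 2-fold, as log2((CPM + 1)/(CPM + 1)).

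The hepatocyte class held 2106 (P14), 925 (control), 1170 (24 h), 719 (48 h) and 771 (96 h) barcodes, with median depths between 18527 and 38922.5 UMIs. The endothelial class held 58, 79, 181, 66 and 99 barcodes with median depths between 1811 and 8298 UMIs. Libraries shared 3 hepatocyte barcodes and 0 endothelial ones. The endothelial class was chosen by 7 markers, and all 7 were detected in it in every library (2247 to 7669 CPM summed), which describes the choice and tests nothing. Free RNA, read from droplets without cells, could account for 0.763% to 6.93% of hepatocyte UMIs and for 2.50% to 36.6% of endothelial UMIs, most in the adult control. In P14, 18 of the 58 endothelial barcodes also met the hepatocyte rule, and without them 36.9% of the class's UMIs were left, against 57.2% to 79.4% in the other libraries. Among endothelial barcodes those of P14 also had the most hepatocyte markers (98274 CPM summed over 9 markers, against 22094 to 30801 CPM elsewhere) and platelet markers (768 CPM, against at most 17.8 CPM). Macrophage markers summed to 29.8 to 349 CPM in the endothelial class. In P14 and the PHx libraries only 2 of the 8 were detected, C1qa and C1qb. The control had 6 of 8 (62.0 CPM), with Clec4f and Timd4 at 0. Mesenchymal markers summed to 31.1 to 77.6 CPM.

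The coactivator gene Yap1 was lowest in P14 hepatocytes and highest in the adult control. It stood at 27.4 CPM (26.2 to 28.7, 1771 UMIs) in P14 and at 61.7 CPM (57.5 to 66.0, 821 UMIs) in the control. The PHx libraries had 57.3 (54.0 to 60.7, 24 h), 44.0 (41.2 to 46.9, 48 h) and 46.5 CPM (42.9 to 50.3, 96 h). The intervals of the adult control and 24 h overlap, as do those of 48 h and 96 h, whereas P14 lies below all the others. The P14 level was 0.445 times the control (0.409 to 0.484), and the later PHx levels were 0.713 (0.648 to 0.785) and 0.754 (0.679 to 0.838) times the control. Among hepatocytes with at least 5% of UMIs from Alb, Apoa1 and Ttr (47 control barcodes with 21 Yap1 UMIs), the log2 ratio was 0.36 at 96 h and −0.33 in P14, in place of −0.40 and −1.14.

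Wwtr1, the gene of TAZ, was higher in each PHx library than in the control. Hepatocytes had 13.9 CPM (13.03 to 14.9, 899 UMIs) in P14 and 13.1 CPM (11.2 to 15.2, 174 UMIs) in the control. After PHx they had 20.9 (18.9 to 23.0, 24 h), 16.1 (14.4 to 17.9, 48 h) and 22.2 CPM (19.7 to 24.8, 96 h). On the CPM scale P14 and control do not differ beyond their intervals, and the 24 h and 96 h libraries stand above both. The P14 ratio depends on the scaling, as given below. Over the control, Wwtr1 was 1.60-fold (1.34 to 1.92) higher at 24 h, 1.23-fold (1.02 to 1.49) at 48 h and 1.70-fold (1.40 to 2.06) at 96 h. The last 2 and P14 changed side among hepatocytes with a mitochondrial share up to 20% (87 barcodes in the control, 116 at 48 h and 53 at 96 h). There the log2 ratio of Wwtr1 was −0.31 (48 h), −0.24 (96 h) and −0.47 (P14), in place of 0.28, 0.72 and 0.09. With at least 5% of UMIs from Alb, Apoa1 and Ttr it was −2.93 at 24 h and at 48 h, a setting that leaves few barcodes there.

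Tead1, the DNA-binding partner, was lowest in the control. Its level was 13.9 CPM (13.04 to 14.9, 900 UMIs) in P14, 8.86 (7.33 to 10.6, 118 UMIs) in the control, and 16.8 (14.99 to 18.7), 13.2 (11.6 to 14.8) and 13.2 (11.3 to 15.3) in the 24 h, 48 h and 96 h libraries. No other library's interval reaches that of the control, and those of P14, 48 h and 96 h overlap. Tead1 was 1.89-fold (1.53 to 2.35) higher than the control at 24 h and 1.57-fold (1.30 to 1.92) higher in P14. With the mitochondrial share up to 20% its log2 ratio at 96 h was −0.37 (7 UMIs against 10), in place of 0.52. In the annotation Gm44462 overlaps Tead1 on the same strand, and reads of such overlapping genes cannot be told apart here.

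Among the targets, Cyr61 was the member with the largest differences between adult libraries. It had 230 UMIs in P14 (3.56 CPM, 3.12 to 4.05), 82 in the control (6.16, 4.90 to 7.64), 283 at 24 h (14.5, 12.9 to 16.3), 204 at 48 h (9.79, 8.49 to 11.2) and 205 at 96 h (15.3, 13.2 to 17.5). On the CPM scale the 24 h and 96 h levels overlap and lie above the other 3 libraries, and P14 lies below all. Its level was 2.36-fold (1.84 to 3.05) the control at 24 h, 1.59-fold (1.22 to 2.08) at 48 h and 2.48-fold (1.91 to 3.24) at 96 h.

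Amotl2, the other target well detected in hepatocytes, was lower in the PHx libraries than in the control, where Cyr61 was higher, and both were lowest in P14. Its level was 9.88 CPM (9.13 to 10.7, 638 UMIs) in P14 and 21.8 CPM (19.3 to 24.4, 290 UMIs) in the control. The 24 h library had 11.9 CPM (10.4 to 13.5), the 48 h library 13.3 (11.8 to 15.01) and the 96 h library 18.5 (16.2 to 20.9). The control and 96 h overlap at the top, and P14, 24 h and 48 h are lower. The intervals of P14 and 24 h overlap. Relative to the control, Amotl2 stood at 0.546 times (0.457 to 0.651) at 24 h, 0.613 times (0.518 to 0.725) at 48 h and 0.847 times (0.712 to 1.01) at 96 h. The last was on the other side of the control with the mitochondrial share up to 20% (log2 ratio 0.25, 28 UMIs against 25).

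Ctgf and Ankrd1 were at or near 0 in hepatocytes. Ctgf had 4, 1, 2, 3 and 0 UMIs in P14, the control and the 3 PHx libraries in time order, and 3 of the 4 in P14 sat in 1 barcode of 78397 UMIs. Ankrd1 had 0 UMIs in either class of every library, which allows up to 0.0465 CPM in P14 hepatocytes, up to 0.225 CPM in the control, and between 3.31 and 11.6 CPM in the endothelial classes. Such a limit for a count of 0 is the level that 3 counts would give, not the bound of the exact interval. Outside both classes Ankrd1 had 2 UMIs among 66125 barcodes in the control and 2 among 2616 at 48 h. No difference in Ankrd1 was detectable at this depth.

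**Figure D1:**
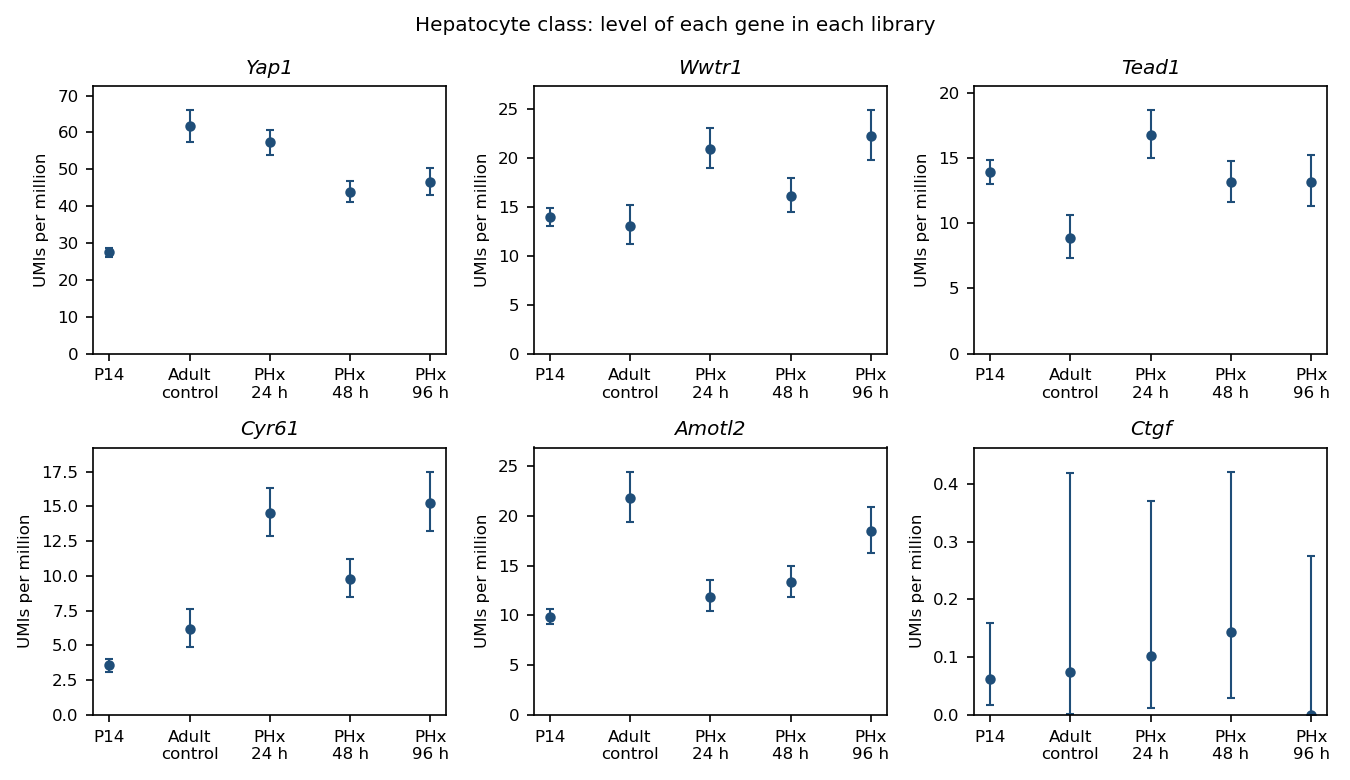
Level of 6 genes in the hepatocyte class (y axis, CPM, scaled per gene) in the 5 libraries (x axis); each point is 1 library's sum, with bars for exact 95% Poisson intervals, which cover counting error only. Cyr61 is highest at 24 h and 96 h (14.5 and 15.3 CPM), Amotl2 and Yap1 are highest in the adult control (21.8 and 61.7 CPM), and Ctgf rests on 0 to 4 UMIs.

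By the 2-fold rule 2, 1, 0 and 1 of the 5 members tested were called in hepatocytes (P14, then PHx in time order). In P14 against the control Yap1 and Amotl2 were called lower, where 13.8% of the 9011 genes tested were called lower, 7.89% higher and 21.7% either way. Cyr61 alone was called, and higher, in the 24 h library, where 8.51% of all genes were called higher, 7.13% lower and 15.6% either way. No member was called in the 48 h library, where the shares of all genes were 8.3% higher, 7.63% lower and 15.9% either way. Cyr61 was again called higher in the 96 h library, where 4.07% of all genes were called higher, 1.88% lower and 5.95% either way. The comparisons share the control library, so they are not independent of each other. The median log2 ratio of the 5 members tested was −0.65 (P14), 0.64 (24 h), 0.28 (48 h) and 0.52 (96 h), beside −0.26, −0.00, −0.08 and 0.04 over all genes. With TMM scaling (edgeR's trimmed mean of M-values) the median of all genes in P14 shifted by 0.32 and the higher share of calls went from 36.3% to 62.6%. Neither Yap1 (−0.81) nor Amotl2 (−0.75) was then called in P14. On that scale Amotl2 was no longer lowest in P14, with −0.77 at 24 h. The P14 log2 ratio of Wwtr1 was then 0.41 in place of 0.09, and that of Cyr61 −0.37 in place of −0.65. For Tead1 it was 0.92 in place of 0.60, beside 0.90 at 24 h. Among hepatocytes with at least 5% of UMIs from Alb, Apoa1 and Ttr the log2 ratio of Amotl2 in P14 was 0.23, against a control of 47 barcodes with 5 Amotl2 UMIs, and with a mitochondrial share up to 20% no member was called at 24 h.

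After thinning every barcode to 1000 UMIs, Yap1 was detected in 2.66%, 3.24%, 4.10%, 3.48% and 3.76% of hepatocytes in library order. In lymphocyte barcodes, which should lack it, the share was 0%, 1.08%, 1.05%, 0.541% and 1.136% (0 of 128 in P14 allows up to 2.34% by the same limit of 3 counts). Unthinned shares were 53.7% to 65.1% in hepatocytes and 1.49% to 6.19% in lymphocyte barcodes, whose median depths lay between 4487.5 and 7833 UMIs. The thinned share of hepatocytes was the higher one in every library, with intervals that overlap in P14, in the 24 h library and in the 96 h library. The summed Yap1 level of lymphocyte barcodes was 2.80, 10.2, 6.00, 2.92 and 7.31 CPM, below that of hepatocytes by more than their intervals in each library.

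The most Cyr61 UMIs in 1 barcode of the hepatocyte class were 9 (P14), and the most Yap1 UMIs were 7. The P14 barcode of 78397 UMIs with 3 Ctgf UMIs held 9 Cyr61 UMIs. It had 9 of 9 hepatocyte markers, but also 3 of 6 cholangiocyte markers, 1 macrophage and 1 mesenchymal marker.

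Tead1 differed with position in the lobule in all 5 libraries. Hepatocytes of each library were divided into 3 bins of equal size by a zone score, 12 pericentral genes (such as Glul and Cyp2e1) over 12 periportal genes (such as Sds and Hal), none of them a member. From the periportal to the pericentral bin Tead1 stood at 16.9, 14.0 and 10.9 CPM in P14 and at 15.6, 8.18 and 3.03 CPM in the control. The PHx libraries gave 20.6, 18.3 and 10.8 (24 h), 16.5, 12.6 and 10.3 (48 h), and 22.1, 13.7 and 5.72 CPM (96 h). In all 5 libraries the pericentral bin was the lowest and the periportal bin the highest. The pericentral level was 0.646 (0.547 to 0.762) times the periportal one in P14, 0.194 (0.101 to 0.347) in the control. After PHx these ratios were 0.524 (0.384 to 0.710), 0.624 (0.456 to 0.848) and 0.259 (0.164 to 0.398) in time order. The control's pericentral bin rests on 14 Tead1 UMIs.

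Cyr61 had no common order along the lobule. It was lower in the pericentral bin in P14 (2.74 against 4.61 CPM, ratio 0.594, 0.424 to 0.826) and higher there in the control (7.57 against 4.08, ratio 1.86, 1.02 to 3.48). At 96 h the pericentral bin had 23.1 CPM against 8.04 in the periportal bin, a ratio of 2.87 (1.93 to 4.39). At 24 h (ratio 0.995, 0.723 to 1.37) and 48 h (1.22, 0.846 to 1.76) the intervals include 1. In the P14 bins the median level of immediate early genes ran the same way as Cyr61 (428 against 594 CPM), and at 96 h it was 1018 against 894 CPM. Their part in the result was not tested.

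Yap1 did not differ between the outer bins beyond its intervals in any library, with ratios from 0.911 (0.773 to 1.07) to 1.11 (0.942 to 1.32). Wwtr1 was lower on the pericentral side in P14 (0.809, 0.688 to 0.950), and its other 4 ratios, from 1.141 to 1.34, had intervals that include 1. Amotl2 was higher on the pericentral side in P14 (1.32, 1.09 to 1.62), and in the other libraries its ratios lay between 0.766 and 1.33 with intervals that include 1.

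**Figure D2:**
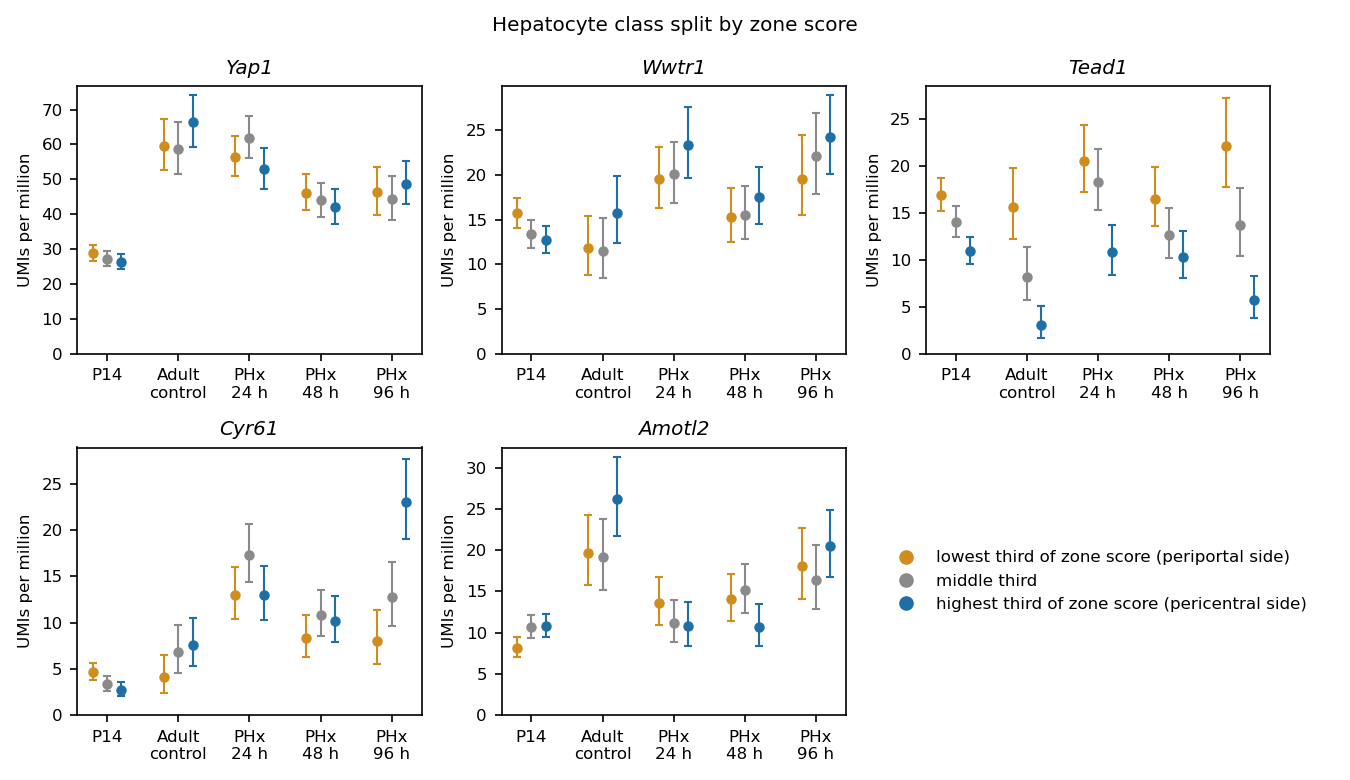
Level of 5 genes (y axis, CPM) in 3 equal bins of the hepatocyte class by zone score within each library (x axis); points are summed UMIs of a bin and bars exact 95% Poisson intervals. Tead1 steps down from the periportal bin to the pericentral bin in each library, from 15.6 to 3.03 CPM in the adult control, while Cyr61 steps up at 96 h, from 8.04 to 23.1 CPM.

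Cyr61 was higher in hepatocytes with mitosis genes in each library that could be compared. For this split every barcode was first thinned to 5000 UMIs, so those with 0 can hold mitosis UMIs at full depth. Hepatocytes with UMIs of at least 3 of 20 mitosis genes were set against those with 0. There were 241 against 1575 (P14), 157 against 768 (24 h), 285 against 304 (48 h) and 67 against 598 (96 h). The control had only 3 and was left out. The first group had 5.71 CPM of Cyr61 in P14 and the second 3.38, and after PHx the first had 26.9 (24 h), 13.2 (48 h) and 23.0 CPM (96 h) and the second 12.0, 7.42 and 12.98 CPM. The ratios were 1.69 (1.17 to 2.40), 2.24 (1.69 to 2.93), 1.78 (1.29 to 2.47) and 1.77 (1.17 to 2.62). In P14 the barcode of 78397 UMIs held 9 of the 40 Cyr61 UMIs of the first group. The intervals treat UMIs of 1 barcode as independent, and the P14 ratio without that barcode was not computed. Median levels of the immediate early genes in these groups were 570 against 514, 696 against 733, 816 against 774, and 1018 against 963 CPM. The zone genes also differed between the groups. In library order without the control, pericentral genes took 0.376%, 0.480%, 0.462% and 0.523% of UMIs in the first group and 0.499995%, 0.391%, 0.489% and 0.380% in the second. Periportal genes took 0.657%, 0.515%, 0.421% and 0.440% in the first and 0.670%, 0.747%, 0.475% and 0.838% in the second. The part of zone and depth in the result was not tested. The first group was deeper at 24 h, 48 h and 96 h, with medians of 24850 against 18871.5, 41660 against 32249.5 and 28208 against 20975 UMIs. In P14 it was less deep (36395 against 39550 UMIs).

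The difference in Cyr61 from the control was also present at 24 h and 96 h among hepatocytes with 0 mitosis genes after thinning. It was 2.03-fold (1.53 to 2.72) at 24 h, 1.25-fold (0.874 to 1.79, an interval that includes 1) at 48 h and 2.19-fold (1.64 to 2.95) at 96 h. Tead1 was higher in hepatocytes with at least 3 mitosis genes in P14 (1.28, 1.05 to 1.56) and at 24 h (1.47, 1.09 to 1.95), with intervals that include 1 at 48 h (1.23) and 96 h (0.760). Yap1 was 1.24-fold (1.07 to 1.44) higher in that group at 48 h, and its other 3 ratios, 1.05 to 1.17, had intervals that include 1. Wwtr1 was higher in P14 (1.30, 1.07 to 1.58) and at 48 h (1.34, 1.05 to 1.71), and Amotl2 in P14 (1.41, 1.12 to 1.77).

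Because Cyr61 is an immediate early gene, hepatocytes were also divided into 3 equal bins by 15 genes known to respond to tissue dissociation. Cyr61 was 3.08-fold (2.14 to 4.52) higher in the highest than in the lowest bin in P14 and 2.42-fold (1.68 to 3.53) at 96 h. At 24 h the ratio was 1.39 (1.04 to 1.86), and in the control (1.142) and at 48 h (1.36) the interval includes 1. Amotl2 at 48 h (1.40, 1.03 to 1.91) and Wwtr1 in P14 (1.22, 1.03 to 1.44) were also higher in the highest bin. The other ratios of these genes, and those of Yap1 (0.925 to 1.17) and Tead1, had intervals that include 1. Of the dissociation genes tested, 4 of 12 were called higher than the control at 96 h and 1 lower (median log2 ratio 0.79), 3 of 11 higher and 1 lower at 48 h (0.37), and 1 of 11 higher and 1 lower at 24 h (0.19), where 4.07%, 8.3% and 8.51% of all genes were called higher. In P14 the median of the list was −0.61, beside −0.26 over all genes. There 1 of 10 was called higher and 3 lower, where 7.89% of all genes were called higher and 13.8% lower. With TMM 2 of 11 were higher and 2 lower (−0.18), where 20.4% of all genes were called either way. With free RNA subtracted 1 was higher and 1 lower at 48 h. In the lowest bin Cyr61 stood at 5.57 CPM (3.45 to 8.52) in the control and at 12.9 (10.3 to 16.1), 7.65 (5.68 to 10.1) and 10.3 CPM (7.39 to 13.9) in the PHx libraries in time order. Of these only the 24 h level has an interval apart from that of the control. No interval of a ratio was computed here, and overlapping level intervals do not show equal levels. The bins were cut within each library and are not matched. The median level of the dissociation genes in the lowest bin was 425 CPM in the control and 456, 504 and 584 CPM in the PHx libraries in time order.

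**Figure D3:**
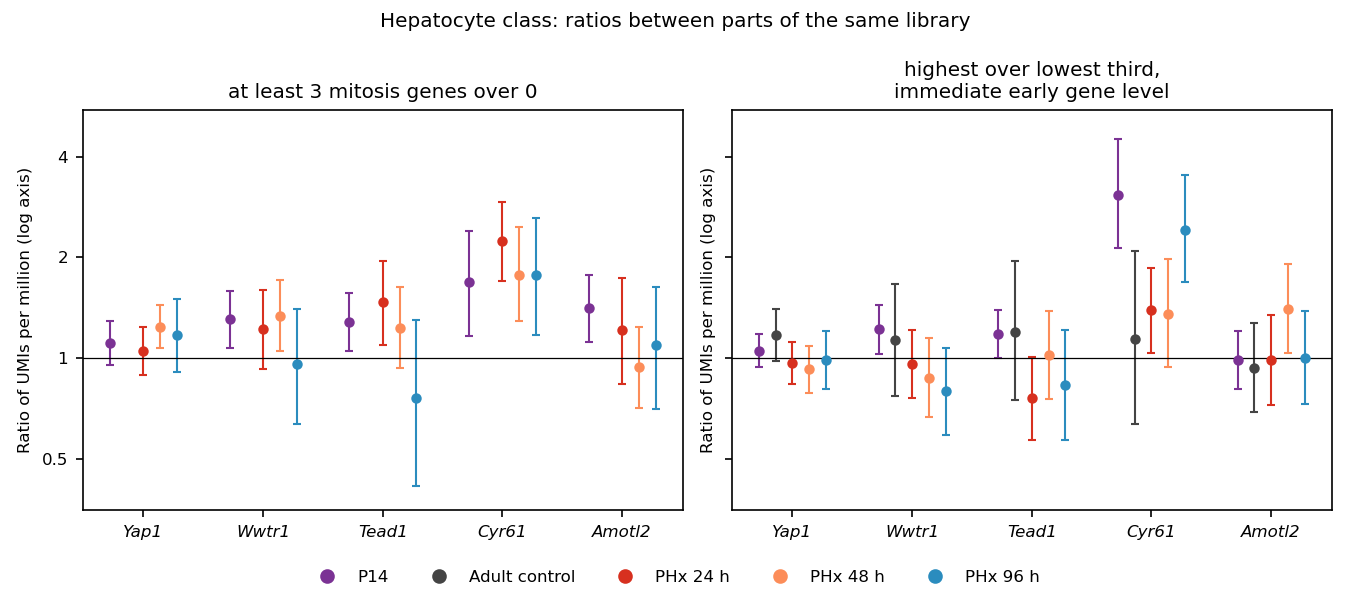
Ratio of levels between parts of the hepatocyte class of the same library (y axis, log scale) for 5 genes (x axis), left between barcodes with at least 3 and with 0 mitosis genes, right between the highest and lowest bin by dissociation genes; bars are exact 95% intervals and colours the libraries, with the adult control absent on the left. Cyr61 lies above 1 in the 4 libraries on the left (1.69 to 2.24) and highest on the right in P14 (3.08) and at 96 h (2.42). Mitosis genes were counted after thinning each barcode to 5000 UMIs.

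On the CPM scale, endothelial barcodes had higher levels of Wwtr1, Tead1 and Amotl2 than hepatocytes of the same library. For Yap1 no difference was detectable on that scale. TMM scaling removed many of the calls and put Yap1 lower in endothelial barcodes, as given below. Wwtr1 had 40 UMIs in P14 (44.1 CPM, 31.5 to 60.1), 10 in the control (38.8, 18.6 to 71.3), and 39 (56.5, 40.2 to 77.2), 29 (64.4, 43.1 to 92.5) and 25 (72.6, 47.0 to 107) after PHx in time order. These levels were 2.70 to 3.99 times those of hepatocytes, and no interval of a ratio includes 1.

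Tead1 had 35, 13, 35, 31 and 21 endothelial UMIs, or 38.6 (26.9 to 53.7), 50.4 (26.8 to 86.2), 50.7 (35.3 to 70.5), 68.8 (46.8 to 97.7) and 61.0 CPM (37.7 to 93.2). That was 2.77 (1.92 to 3.88) times the hepatocyte level in P14 and 5.69 (2.94 to 10.1) times in the control. Amotl2 had 28 UMIs in P14 (30.9 CPM, 20.5 to 44.6), 13 in the control (50.4, 26.8 to 86.2), 48 at 24 h (69.5, 51.2 to 92.1), 43 at 48 h (95.5, 69.1 to 129) and 22 at 96 h (63.9, 40.0 to 96.7).

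Over hepatocytes Amotl2 was 3.13-fold (2.06 to 4.56) higher in P14, 2.31-fold (1.22 to 4.02) in the control, and 5.85-fold (4.19 to 8.01), 7.15-fold (5.06 to 9.89) and 3.46-fold (2.13 to 5.36) at 24 h, 48 h and 96 h. Yap1, with 12 to 29 endothelial UMIs per library, ranged from 23.2 CPM (14.3 to 35.4) in P14 to 49.4 (28.8 to 79.0) at 96 h, with ratios to hepatocytes from 0.733 to 1.06 whose intervals all include 1. Free RNA could supply 36.6% of the Yap1 UMIs of endothelial barcodes in the control and 2.28% to 13.7% in the other libraries. For Wwtr1, Tead1 and Amotl2 that share was at most 11.5%, 4.96% and 12.9%.

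Calls in that direction were common among all genes. In P14, Ctgf, Wwtr1, Tead1 and Amotl2 were called higher in endothelial barcodes, where 33.6% of all genes were called higher, 1.78% lower and 35.3% either way. In the control, Wwtr1, Tead1 and Amotl2 were called higher (31.8% of all genes higher, 7.14% lower, 38.9% either way). In the 24 h library, Ctgf, Wwtr1, Tead1 and Amotl2 were called higher and Cyr61 lower (32.7% of all genes higher, 8.54% lower, 41.2% either way). In the 48 h library, Wwtr1, Tead1 and Amotl2 were called higher (35.6% of all genes higher, 9.89% lower, 45.5% either way). In the 96 h library, the 4 genes of the 24 h library were again higher and Cyr61 lower (34.6% of all genes higher, 11.1% lower, 45.7% either way). Ctgf was near 0 in hepatocytes, so it was tested only where its endothelial level reached 5 CPM, and a call of higher was then fixed. Its call at 96 h rests on 2 endothelial UMIs (5.81 CPM) against 0 in hepatocytes. That call was lost with a pseudocount of 10 CPM. It was also lost with TMM scaling, where the log2 ratio was still 2.38, over the 2-fold threshold. Cyr61 had only 5, 1, 3, 5 and 2 endothelial UMIs, and its ratio to hepatocytes was 0.300 (0.0614 to 0.884) at 24 h and 0.381 (0.0458 to 1.39) at 96 h.

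TMM scaling moved the median of all genes by −0.67 to −0.83, and the share of calls that were higher from 94.96% to 52.0% (P14), 81.7% to 37.0% (control), 79.3% to 41.1% (24 h), 78.3% to 40.4% (48 h) and 75.7% to 42.0% (96 h). On that scale the log2 ratios of Wwtr1, Tead1 and Amotl2 were still above 0 in all libraries (0.34 to 1.95), but many of the calls were lost. Wwtr1 was under the 2-fold threshold in P14 (0.91), the control (0.67), 24 h (0.64) and 96 h (0.93), Tead1 in P14 (0.72) and 24 h (0.79), and Amotl2 in P14 (0.88) and the control (0.34). Yap1 lay between −0.65 and −1.25 and was called lower in the control (−1.25) and at 24 h (−1.20).

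Leaving out the barcodes that also met the hepatocyte rule raised the endothelial levels of Wwtr1, Tead1 and Amotl2 in each library. Amotl2 then stood at 65.7, 57.8, 90.8, 155 and 73.2 CPM in library order, Tead1 at 65.7, 63.1, 64.2, 113 and 76.8 CPM, and Wwtr1 at 80.6, 47.3, 75.3, 101 and 84.1 CPM. Yap1 stayed between 23.9 and 54.4 CPM.

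**Figure D4:**
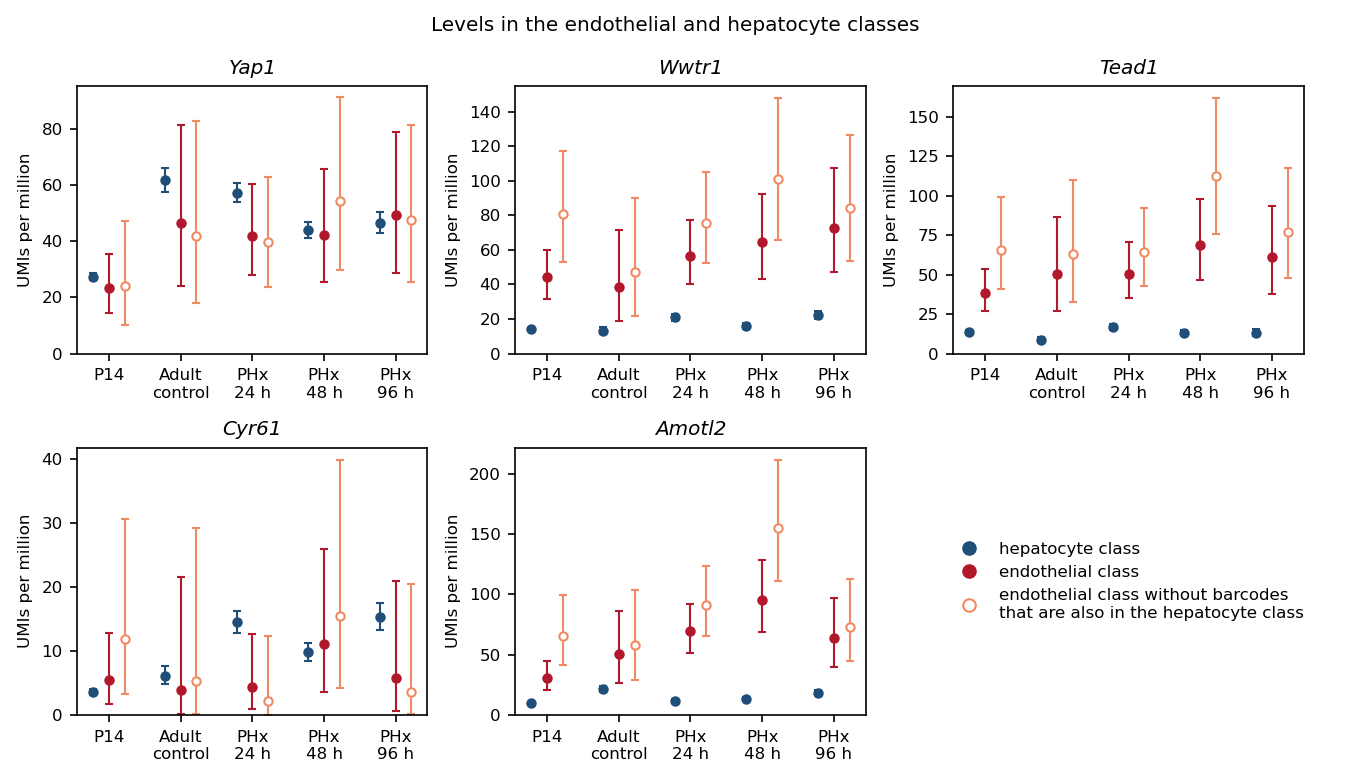
Level of 5 genes (y axis, CPM) in hepatocytes, in endothelial barcodes, and in endothelial barcodes that did not also meet the hepatocyte rule, in the 5 libraries (x axis); bars are exact 95% Poisson intervals. Wwtr1, Tead1 and Amotl2 lie above hepatocytes in each library, Amotl2 most at 48 h (95.5 against 13.3 CPM), and Yap1 overlaps.

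Across the groups few members were called in the endothelial class. Against the control no member was called in P14, where 17.6% of all genes were called higher, 19.1% lower and 36.7% either way. Ctgf was called higher in the 24 h library, from 10 against 1 UMIs (15.8% of all genes higher, 13.9% lower, 29.7% either way). Cyr61 was called higher in the 48 h library, from 5 against 1 UMIs (18.1% of all genes higher, 14.8% lower, 32.9% either way). The intervals of both ratios include 1 (0.531 to 162 for Ctgf and 0.320 to 135 for Cyr61), and both changed side under another setting. Ctgf had a log2 ratio of −1.79 with under 1% of UMIs from Alb, Apoa1 and Ttr, and Cyr61 one of −0.27 with at least 2 markers. No member was called in the 96 h library (16.4% of all genes higher, 13.2% lower, 29.6% either way). TMM scaling shifted the median of all genes in P14 by 0.28 and the higher share of calls from 47.9% to 64.4%, and free RNA subtraction shifted the medians by −0.13, −0.11, −0.17 and −0.09 (P14, then PHx in time order). Among members with at least 10 UMIs in both libraries, the largest ratio above 1 was that of Amotl2 at 48 h, 1.89 (1.00 to 3.84), and the lowest that of Yap1 in P14, 0.498 (0.234 to 1.11, from 21 and 12 UMIs). Wwtr1 stood at 1.46 (0.714 to 3.27), 1.66 (0.787 to 3.82) and 1.87 (0.868 to 4.37) after PHx in time order. Its log2 ratio was −0.36 at 24 h and −0.19 at 96 h with under 1% of UMIs from Alb, Apoa1 and Ttr, and 0.16, 0.21 and 0.61 with free RNA subtracted.

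Most endothelial Ctgf UMIs of P14 and of 24 h sat in 1 barcode each. In P14 1 endothelial barcode of 11424 UMIs with 5 of the 7 endothelial markers held all 5, and at 24 h 1 barcode of 4922 UMIs with 7 of 7 held 9 of the 10. Neither had a mesenchymal or platelet marker, but the first also had 8 of 9 hepatocyte markers, 1 mesothelial and 1 cholangiocyte marker, and the second 9 of 9 hepatocyte markers. Outside both classes the control had 53 Ctgf UMIs in 52 of 66125 barcodes (0.541 CPM). The droplets used to read free RNA had a median of 1330 UMIs in the control, so many of these barcodes may hold no cell. Among barcodes outside both classes, 1 at 96 h held 8 Ctgf UMIs together with 5 of 6 cholangiocyte markers and 0 endothelial markers. At 24 h 1 such barcode held 2 with 6 of 10 mesenchymal markers.

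Endothelial barcodes with a UMI of Wnt2, Wnt9b or Rspo3, the signals that central vein and neighbouring endothelium send to pericentral hepatocytes, had more Amotl2 than those without. Amotl2 stood at 77.1 CPM with and 12.4 CPM without in P14, and at 63.7 and 44.6 CPM in the control. The PHx libraries gave 87.3 and 51.9 (24 h), 156 and 24.2 (48 h), and 101 and 39.0 CPM (96 h). The order was the same in all 5 libraries, and the intervals of the 2 levels do not overlap in P14 (47.1 to 119 against 5.34 to 24.4) and at 48 h (110 to 214 against 7.85 to 56.4). For Wwtr1, Tead1 and Yap1 the order was not common to all libraries: the level with such a UMI was the higher one in 3 of 5 libraries for Wwtr1, in 4 of 5 for Tead1 and in 3 of 5 for Yap1. Wwtr1 had 0 UMIs in the 17 control barcodes with such a UMI and 10 in those without (55.7 CPM), and at 96 h it stood at 64.6 with and 78.0 CPM without. Tead1 at 24 h stood at 49.5 with and 51.9 CPM without. As for Amotl2, the intervals of Tead1 do not overlap in P14 (44.1 to 114 against 14.1 to 40.2) and at 48 h (69.7 to 156 against 7.85 to 56.4). Those of Wwtr1 do not overlap in P14 (65.4 to 147 against 11.8 to 36.3). The 189 barcodes with such a UMI were deeper than the 294 without (medians of 4010 and 1760.5 UMIs), 9 and 40 of them also met the hepatocyte rule, and Alb, Apoa1 and Ttr took 1.77% and 4.74% of their UMIs. The overlap was uneven in the 2 libraries whose intervals separate. In P14, 14 of the 38 barcodes without such a UMI met the hepatocyte rule, against 4 of the 20 with one. At 48 h these were 7 of 24 against 1 of 42. Alb, Apoa1 and Ttr took 8.40% against 4.94% of UMIs in P14 and 2.25% against 0.393% at 48 h. The lower levels without such a UMI thus include hepatocyte RNA in the denominator. The part of depth and of hepatocyte RNA in the result was not tested.

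**Figure D5:**
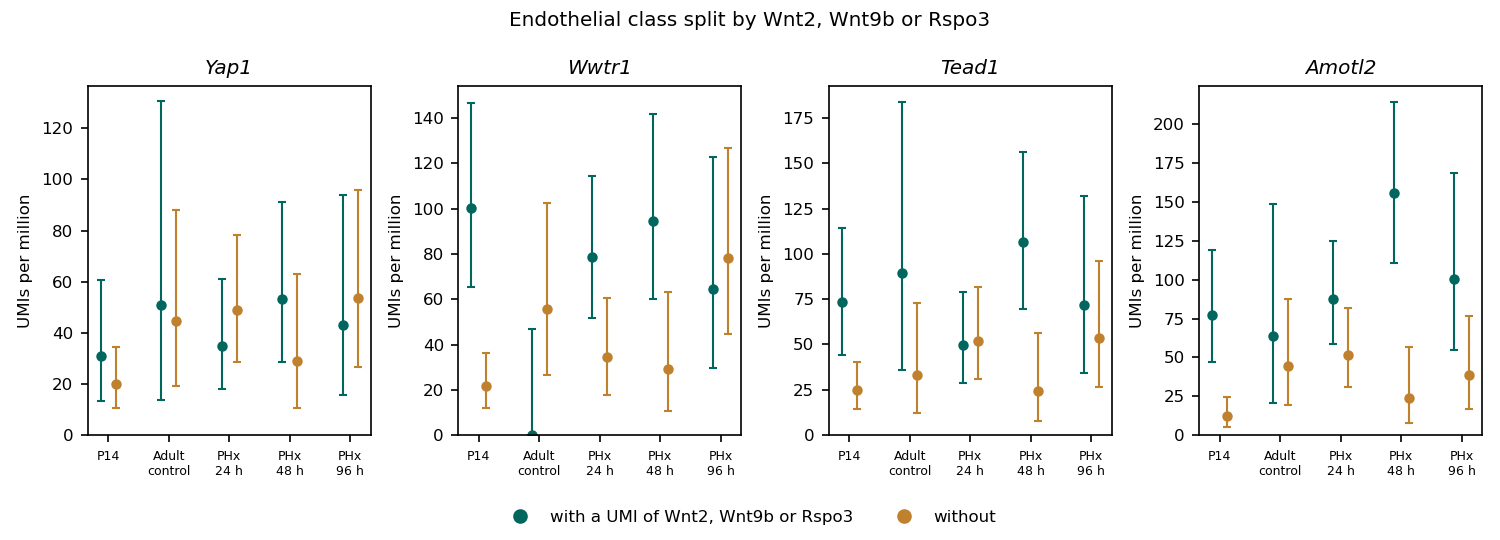
Level of 4 genes (y axis, CPM) in endothelial barcodes with and without a UMI of Wnt2, Wnt9b or Rspo3 in the 5 libraries (x axis); bars are exact 95% Poisson intervals. Amotl2 is higher with such a UMI in each library, from 63.7 against 44.6 CPM in the adult control to 156 against 24.2 CPM at 48 h. Of the barcodes without such a UMI, 14 of 38 in P14 and 7 of 24 at 48 h also met the hepatocyte rule.

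Of 17 Hippo kinases and adaptors, 15 reached 5 CPM in hepatocytes. Map4k4, a kinase that acts upstream of LATS, was the gene called higher in each comparison, with 3.23 CPM in the control (43 UMIs), 10.9 in P14, and 8.15, 39.8 (830 UMIs) and 13.5 after PHx in time order. It was the 1 gene of 15 called higher each time, beside 7.89% of all genes in P14 and 8.51%, 8.3% and 4.07% after PHx. Its log2 ratio at 48 h was 3.27. Mob1b, a LATS cofactor, was called lower in P14 (41.1 against 87.5 CPM) but not with TMM scaling, and no other gene of the list was called lower. The median log2 ratio of the list was −0.53 (P14), 0.09 (24 h), −0.23 (48 h) and −0.11 (96 h), beside the medians of all genes given above.

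No other gene of that list was called against the control in hepatocytes. Wwc1 (KIBRA), which recruits LATS to the membrane, stood at 47.9, 64.0, 97.1, 86.1 and 82.1 CPM in library order and Taok3, a kinase of the MST step, at 106, 81.4, 44.4, 66.0 and 61.6 CPM. Lats2, itself also listed as a YAP target, stood at 6.52, 14.0, 9.17, 8.45 and 12.2 CPM. Nf2 (Merlin), the upstream brake on YAP in liver, stood at 9.54, 14.4, 9.94, 10.0 and 8.04 CPM. In endothelial barcodes 10 to 12 of the 17 were called higher than in hepatocytes of the same library, with median log2 ratios of 1.25 to 1.78, beside 0.44 to 0.59 over all genes. The share of all genes called higher there was 31.8% to 35.6%. With TMM 6 to 8 of the list were called higher and 1 or 2 lower (medians 0.43 to 0.90), beside 16.4% to 19.5% of all genes higher and 16.7% to 28.7% lower (medians −0.41 to −0.13). In the control 1 gene of the list, Stk4 (MST1), was called lower, from 2 endothelial UMIs; it is named after its value was seen. Amotl1, the sister scaffold of Amotl2, had 86.0 CPM in P14 endothelial barcodes, 101 in the control, and 125, 226 and 200.3 after PHx in time order.

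Of the 5 other TEAD genes and cofactors, Vgll4, which competes with YAP for TEAD, lay between 17.9 and 21.95 CPM in hepatocytes of all libraries. Tead2 had 389 UMIs in P14 hepatocytes (6.02 CPM) and 0, 5, 13 and 2 UMIs in the other libraries, the control first. Tead3 lay between 4.66 and 7.73 CPM. In the endothelial class Vgll4 lay between 44.9 and 56.3 CPM and Tead2 between 12.1 and 26.6 CPM.

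Of 18 other reported YAP and TAZ targets, 6 reached 5 CPM in hepatocytes at each PHx time, with 0 called higher and 1 lower, and 7 in P14, with 1 higher and 3 lower. Of all genes, 7.13%, 7.63% and 1.88% were called lower at the PHx times in order and 13.8% in P14. Gadd45a, a stress response gene, was called lower in each comparison, with 7.17 CPM in P14, 34.2 in the control and 11.4, 11.9 and 15.8 CPM after PHx in time order. Crim1, which binds growth factors at the cell surface, stood at 5.22, 17.5, 29.6, 16.8 and 16.5 CPM in library order, and Nuak2, a kinase, at 6.41, 19.4, 16.3, 9.60 and 12.95. Nt5e (CD73) had 30.7 CPM in P14 and between 0.751 and 3.20 CPM elsewhere. The median log2 ratio of the list was −0.99 (P14), −0.15 (24 h), −0.45 (48 h) and −0.13 (96 h), beside −0.26, −0.00, −0.08 and 0.04 over all genes.

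Over the 10 values of the 5 libraries and 2 classes, the genes most like each member were found among 8833 genes by Pearson correlation of log2(CPM + 1). They were Ablim3 (r = 0.95), Cyb5b and Serpina3k for Yap1, Sgsh (0.99), Tubgcp3 and Crtap for Wwtr1, Smc6 (0.99), Itm2c and Leprot for Tead1, and Trip10 (0.99), Gata4 and Ncoa3 for Amotl2. The 10 values come from 2 cell classes that share their libraries, and Wwtr1, Tead1 and Amotl2 differ between the classes. On the CPM scale Yap1 shows no detectable difference between the classes. With TMM scaling it was called lower in endothelial barcodes in the control (−1.25) and at 24 h (−1.20). Its CPM is lowest in P14 in both classes, but the endothelial ratio of P14 to the control has an interval that includes 1 (0.234 to 1.11). The correlations are given as a description. Cyr61, Ctgf and Ankrd1 were too low for this comparison.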

How the data were processed

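The authors deposited, per library, a sparse matrix of UMI counts per gene and barcode, raw and unfiltered. Per the file headers it was written by software version 3.0.2, and the submitters' processing notes name Cell Ranger, Seurat 3.1, bcl2fastq 2.17.1.14 and the build mm10. The annotation release is not given in the sources used here. Members and lists were chosen with earlier results of these data known.

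Hepatocytes had at least 5000 UMIs, 10% to 30% mitochondrial UMIs and at least 1% of UMIs from Alb, Apoa1 and Ttr. Endothelial barcodes had at least 1000 UMIs, 500 genes, under 30% mitochondrial UMIs, at least 3 of 7 markers and no Ptprc. No doublet caller was run; barcodes in both classes were left out as an alternative. Libraries held 80927744 to 136110607 UMIs. Free RNA was read from barcode ranks 20001 to 60000. Counts were summed per class and scaled to CPM without mitochondrial genes; ratios used a pseudocount of 1 CPM. Computation used Python 3.11.15, numpy 2.4.6, scipy 1.17.1 and, for TMM, edgeR 4.0.16, and was tested on simulated data. On simulated counts of the endothelial class at 24 h against the control, the 2-fold rule also called some unchanged genes. Named list genes were the 3 with the highest mean CPM per class and up to 2 with the largest ratio in each direction. Gene positions came from GENCODE M21 and promoters from RefSeq, both on GRCm38.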

Additional observations from a re-analysis of the deposited data

Results flagged for a closer look

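Amotl2 lay on opposite sides of the adult control in the 2 cell classes after PHx. In hepatocytes its log2 ratio over the control was −0.82 (24 h), −0.67 (48 h) and −0.23 (96 h), and in endothelial barcodes it was 0.46, 0.91 and 0.34. All 3 PHx libraries were lower in the one class and higher in the other, and all share the same control. The difference was not tested. The endothelial values rest on 13 UMIs in the control and on 22 to 48 UMIs in the PHx libraries. With free RNA subtracted they were 0.17, 0.43 and 0.12. The counting intervals of the endothelial ratios include 1 (0.735 to 2.77, 1.00 to 3.84 and 0.611 to 2.74), as does that of hepatocytes at 96 h (0.712 to 1.01). The endothelial log2 ratio at 24 h was −0.27 with under 1% of UMIs from Alb, Apoa1 and Ttr and −0.02 with at least 2000 UMIs. In hepatocytes it was 0.25 at 96 h with a mitochondrial share up to 20%, and with at least 5% of UMIs from Alb, Apoa1 and Ttr 0.90 at 48 h (1 UMI in 2 barcodes) and 1.01 at 96 h, against 5 UMIs in 47 control barcodes.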

How the results depend on the processing

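No paired analysis was possible because each group has 1 library. Of the alternatives, a minimum of 10 UMIs in the compared sums, bins by dissociation genes, and leaving out barcodes in both classes were chosen after seeing the data. Counts of members called stayed within 1.5 times of the reported value in 139 of 186 recomputations, and the cause of the others was not tested. An equal count can hold other members: with TMM the control's 3 calls of endothelial barcodes over hepatocytes were Tead1 (1.56) higher and Yap1 (−1.25) and Cyr61 (−1.26) lower. For hepatocytes over the control, requiring at least 5% of UMIs from Alb, Apoa1 and Ttr gave 1 (P14), 4 (24 h), 4 (48 h) and 2 (96 h) in place of 2, 1, 0 and 1, and Amotl2 in P14 then had a log2 ratio of 0.23. Of these, 3 of 4 (24 h) and 4 of 4 (48 h) were lower. That setting leaves 47 control barcodes, 6 at 24 h and 2 at 48 h, where each member had 0 to 2 UMIs. Of all genes it called 23.9% (P14), 47.3% (24 h), 53.7% (48 h) and 16.6% (96 h) either way. These shares stand in place of 21.7%, 15.6%, 15.9% and 5.95%. A pseudocount of 10 CPM gave 0 in P14, 24 h and 96 h, TMM gave 0 in P14, all UMIs as denominator gave 1 in P14, and a mitochondrial share up to 20% gave 0 at 24 h.

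For endothelial barcodes over the control, the reported counts were 0, 1, 1 and 0. In this paragraph the percentages in brackets are shares of all genes called under the setting. At least 4 markers gave 1 (P14, 35.1%), 2 (24 h, 31.2%) and 2 (48 h, 38.7%). At least 2 markers gave 1, 2, 3 and 2 (26.7%, 28.3%, 31.2% and 26.8%), where Cyr61 at 48 h had a log2 ratio of −0.27. At least 2000 UMIs gave 3 (P14, 41.3%), 2 (24 h, 34.3%) and 1 (96 h, 33.3%), and a mitochondrial share under 15% gave 2 (P14, 44.2%) and 2 (48 h, 43.5%). Under 1% of UMIs from Alb, Apoa1 and Ttr gave 2 (P14, 55.5%), 2 (48 h, 43.8%) and 1 (96 h, 45.0%), with Ctgf at 24 h then at −1.79. Leaving out barcodes in both classes gave 2 (P14, 49.5%) and 3 (48 h, 46.4%), and free RNA subtraction 3 (P14, 50.1%) and 2 (48 h, 38.9%). All UMIs as denominator gave 1 (P14, 37.2%), and the mean of barcode CPM 2, 4, 4 and 2 (46.4%, 42.8%, 51.3% and 40.7%). A pseudocount of 10 CPM gave 0 at 24 h (14.2%) and 48 h (15.8%), and a minimum of 10 UMIs 0 at 48 h (25.2%). For endothelial barcodes over hepatocytes, the reported counts were 4, 3, 5, 3 and 5 (P14, control, then PHx). At least 2 markers gave 1 (P14, 18.1%), 1 (control, 15.4%), 3 (24 h, 26.1%) and 3 (96 h, 30.4%). TMM gave 0 (P14, 34.8%) and 3 (96 h, 45.5%), with the log2 ratio of Ctgf still at 2.43 in P14 and 2.38 at 96 h. In the control the count became 5 with at least 2000 UMIs (46.6%) and 5 with under 1% of UMIs from Alb, Apoa1 and Ttr (66.2%). At 48 h it became 5 with the hepatocyte share of at least 5% (66.3%), and at 96 h 3 with the larger pseudocount (26.3%).

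Depth limits the endothelial class: Yap1, Wwtr1, Tead1 and Amotl2 rest there on 10 to 48 UMIs per library, and Cyr61 and Ctgf on 1 to 10. With 1 library per group, counting intervals leave out the spread between animals.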
